A study of Mus musculus with 6 samples.

Results

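The 3 assays described here measure miR-451, miR-144 and miR-486, microRNAs (miRNAs) best known from red blood cells, in prefrontal cortex of the mouse strains BTBR and C57BL/6J. They were chosen by name from the 750 miRNA assays of the raw table, ignoring species prefix, arm mark and 1 trailing letter, and every match was kept: mmu-miR-451 (assay 001141, pool A), hsa-miR-486 (001278, pool A) and HSA-MIR-144 (002676, pool B). The prefix gives the species of the assay design, and the pool is the letter that ends the assay's identifier. Cortex came from 3 male mice of the genotype BTBR T+ Itpr3tf/J (here BTBR, an inbred strain with low sociability) and from 3 wild type male C57BL/6J mice, all aged 5 months and without drug treatment. The labels give C57BL/6J as the strain background of all 6 samples, also of those labelled BTBR, and do not explain this. Each mouse gave 1 sample of whole prefrontal cortex, measured on a TaqMan OpenArray rodent panel with 1 PCR per assay. Its value is a cycle threshold, the cycle number at which fluorescence passes a set line. An earlier threshold therefore stands for more RNA, and 40 was read as undetermined.

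In red cell precursors, miR-144 and miR-451 are cut from 1 transcript that is switched on by the transcription factor GATA1. The miR-451 hairpin is unusual in that Argonaute 2 cuts it without Dicer, the enzyme that finishes most other miRNAs. The gene of miR-486 lies inside Ank1, the gene of the red cell membrane protein ankyrin 1, and miR-486 is also made in muscle. Mature red cells keep these miRNAs after they lose their nucleus, so a piece of brain that still holds blood in its vessels yields them together with the miRNAs of neurons and glia. The labels do not say whether the mice were perfused before dissection. In bulk tissue, fewer cells of a type and less RNA per cell cannot be told apart.

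The mature sequences of miR-451a and of both arms of miR-144 are shown because these miRNAs share a locus but not a seed. They are from RefSeq, build GRCm38.p6, where 2 of the 3 members were matched by name. Capitals mark the seed, bases 2 to 8.
mmu-miR-451a: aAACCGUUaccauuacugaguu
mmu-miR-144-3p: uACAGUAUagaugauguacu
mmu-miR-144-5p: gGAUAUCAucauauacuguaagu
Each of these seeds occurred in 1 mature miRNA name only among the 1679 names of that table. The hairpins are given below with the mature miRNAs in capitals. Mir144 lies on the plus strand at chr11:78073005-78073070 and Mir451a on the same strand at chr11:78073170-78073241, with 99 bases between them.
Mir451a hairpin: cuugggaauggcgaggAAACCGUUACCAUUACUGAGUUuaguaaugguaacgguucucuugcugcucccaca
Mir144 hairpin: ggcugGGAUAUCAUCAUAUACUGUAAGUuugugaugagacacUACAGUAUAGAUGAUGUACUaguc
The mature miR-451a runs from base 17 to base 38 of its 72-base hairpin, across the loop. The miR-144 hairpin of 66 bases carries a mature miRNA on each arm. RefSeq also lists Mir451b on the minus strand of the Mir451a locus, and places Mir486 and Mir3107 (also called mir-486b) inside Ank1. The files do not give the sequences of the assays, so which of overlapping miRNAs each assay reads is taken from its name.

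The tissue and the samples were checked first. Of 5 neuronal assays 3 were read in all 6 mice, and mmu-miR-124a, the commonest neuronal miRNA, ran from 19.785 to 23.29 cycles in BTBR and from 24.444 to 31.396 cycles in C57BL/6J. Its lesser strand by name, hsa-miR-124#, went the other way, at 40 in all BTBR mice and at 22.735, 21.703 and 13.676 cycles in C57BL/6J. In each C57BL/6J mouse hsa-miR-124# was read earlier than mmu-miR-124a. The neuronal assay hsa-miR-128a was read at 14.466 to 14.909 cycles in BTBR and, with no overlap, at 13.814 to 13.991 cycles in C57BL/6J. The assay hsa-miR-9# overlapped, at 13.738 to 14.092 cycles in BTBR and 13.494 to 13.755 cycles in C57BL/6J, while hsa-miR-9 was read in BTBR replicates 1 and 2 only. The neuronal assays thus did not move one way between the strains. The endothelial assay hsa-miR-126 was read at 16.465 to 18.055 cycles in BTBR and 17.82 to 19.073 cycles in C57BL/6J, so the groups overlapped. The second endothelial assay, hsa-miR-126#, was read in all BTBR mice but in C57BL/6J replicate 3 only. Its raw values were 20.589, 22.776 and 28.96 cycles in BTBR replicates 1, 2 and 3, against 40, 40 and 32.099 in C57BL/6J. Normalized values were 20.84, 24.22 and 40 in BTBR, against 40, 40 and 28.35 in C57BL/6J, so the groups overlapped there. BTBR replicate 3 stood apart from its group. In raw thresholds over the 237 assays read throughout, it correlated at r = 0.918 and 0.911 with BTBR replicates 1 and 2, and at 0.937, 0.964 and 0.957 with C57BL/6J replicates 1, 2 and 3, a description across assays, which are not independent replicates. Results are therefore also given without that mouse.

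The 3 assays behaved in 3 different ways. The assay mmu-miR-451 was read in all 6 mice, hsa-miR-486 in every BTBR mouse and in no C57BL/6J mouse, and HSA-MIR-144 in none. Over the whole panel, 31.6% of the 750 assays were read in all 6 samples (40.3% in pool A), 3.73% in each BTBR mouse but no C57BL/6J mouse, and 38% stood at 40 throughout. A reading here is a raw threshold of 10 cycles or more and under 40.

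**Figure D1:**
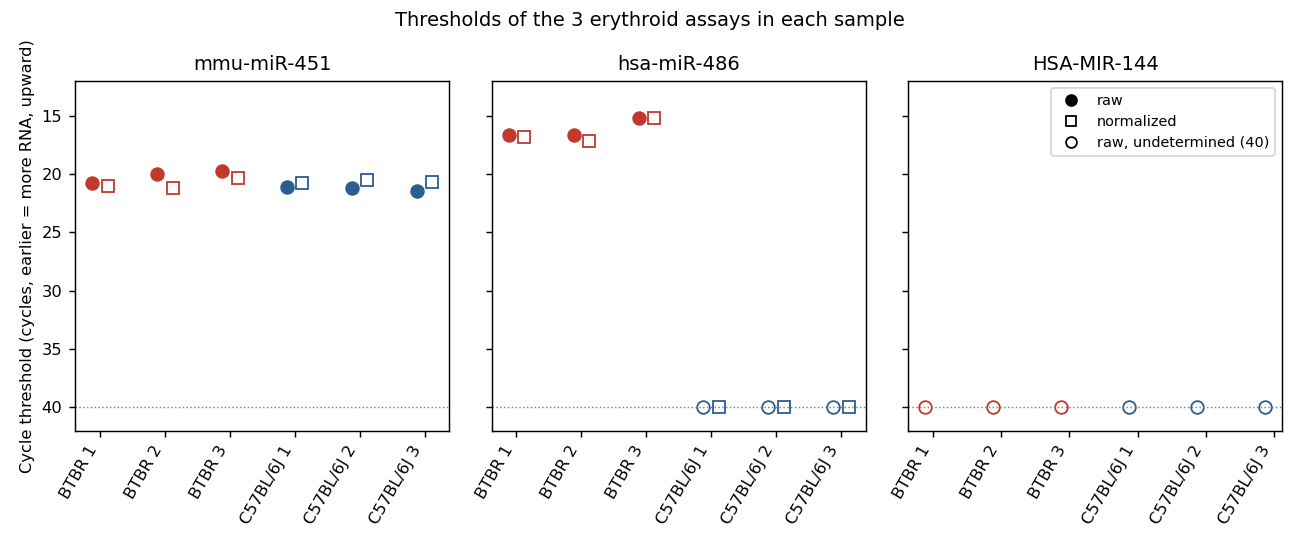
Cycle threshold (y axis, cycles, earlier thresholds upward) of the 3 assays in the 3 BTBR and 3 C57BL/6J mice (x axis), 1 point per mouse, with raw values as circles and the authors' normalized values as open squares, and undetermined values at 40. For mmu-miR-451 all BTBR raw values lie above all C57BL/6J raw values while the normalized ones overlap, hsa-miR-486 is at 40 in all C57BL/6J mice, and HSA-MIR-144 is at 40 in all mice.

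Raw thresholds of mmu-miR-451 were 20.72, 19.985 and 19.742 cycles in BTBR replicates 1, 2 and 3, against 21.099, 21.176 and 21.426 cycles in C57BL/6J replicates 1, 2 and 3. Every BTBR mouse was earlier than every C57BL/6J mouse, and the spread was wider among the BTBR mice. The means were 20.15 ± 0.509 cycles in BTBR and 21.23 ± 0.171 cycles in C57BL/6J (SD, n = 3 each), a log2 difference of 1.08 that corresponds to 2.12-fold more in BTBR if 1 cycle is a 2-fold difference. An exact two-sided permutation test gave p = 0.1, the smallest that 3 against 3 samples allow. In limma across all 270 assays with readings in at least 2 samples of each strain, the difference had a standard error of 0.35, an unadjusted p of 0.0236 and an adjusted p of 0.186. On that scale 0% of the 270 assays passed the threshold of 0.05 after adjustment, with 52 under it before adjustment. Without BTBR replicate 3 the raw difference was 0.88. Among the 237 assays read in all 6 samples, 14.3% had earlier raw thresholds in every BTBR mouse and 18.1% had later ones in every BTBR mouse.

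On the authors' normalized scale the difference had the opposite sign. There mmu-miR-451 stood at 21.01, 21.22 and 20.37 cycles in the BTBR mice, against 20.79, 20.49 and 20.70 cycles in the C57BL/6J mice. The groups overlapped, with BTBR replicate 3 earliest of the 6 and BTBR replicate 2 latest. The log2 difference, BTBR minus C57BL/6J, was -0.21 with a standard error of 0.33, and it did not pass (limma adjusted p = 0.64 over 231 assays). Without BTBR replicate 3 it was -0.45 (limma adjusted p = 0.255). On that scale 36.8% of the assays passed, 1.3% higher and 35.5% lower in BTBR. The authors' deposited table gives a ratio of 0.867 and an adjusted p of 0.608 for this assay.

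Ranks, on which quantile normalization works, also moved when assays with undetermined cells were counted. Among the 237 assays read in all 6 samples, mmu-miR-451 was number 84, 86 and 72 from the earliest in the BTBR mice, against number 94, 93 and 103 in the C57BL/6J mice, so it ranked earlier in every BTBR mouse. The authors' quantiles were rebuilt to within 0.0613 cycles from the 340 assays with readings in at least 3 of the 6 samples, with undetermined cells entering at 40. Among those 340 the rank of mmu-miR-451 was 116, 121 and 103 in BTBR, against 110, 105 and 109 in C57BL/6J. Of 91 such assays that were earlier than mmu-miR-451 in all BTBR mice, 16 had no reading in any C57BL/6J mouse, and one of these is hsa-miR-486. Of 88 that were earlier than it in all C57BL/6J mice, 0 lacked a reading in all BTBR mice. The part of these undetermined cells in the change of sign was not tested.

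Relative to the rest of the panel, mmu-miR-451 sat at about the same place on both scales. Its change was higher than that of 77.1% of the 231 assays on the authors' scale and of 77.0% of the 270 on raw thresholds. It lay 0.92 above the median change of all assays (-1.13) on the authors' scale and 1.09 above the median (-0.01) on raw thresholds. From the highest change down it was number 53 on the authors' scale and number 62 on raw thresholds.

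**Figure D2:**
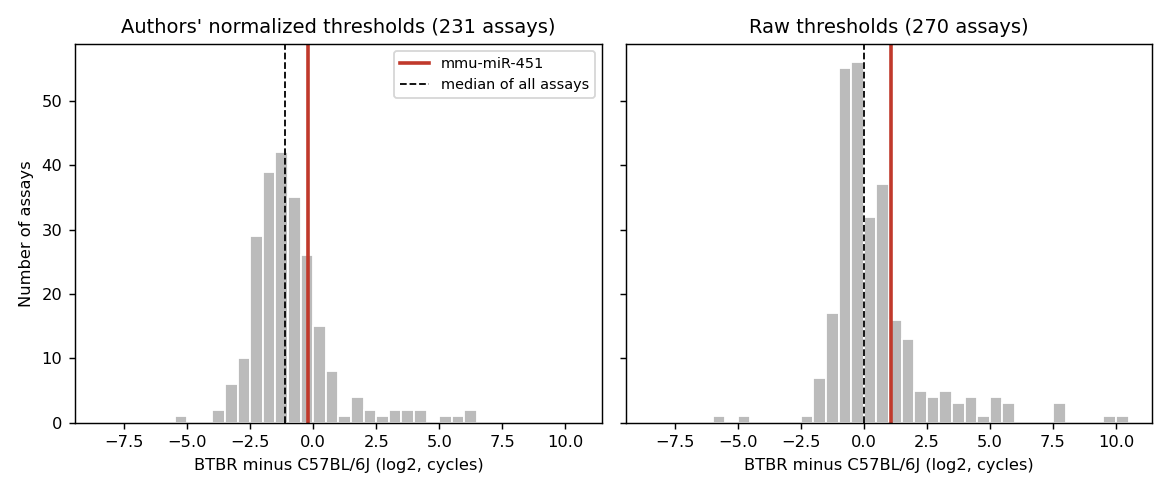
Number of assays (y axis) by their BTBR minus C57BL/6J difference (x axis, log2, cycles) on the authors' normalized thresholds (left) and on raw thresholds (right), with mmu-miR-451 as a solid line and the median of all assays as a dashed line. The median moves from -1.13 on the left to -0.01 on the right, and mmu-miR-451 lies to the right of it in both panels, at -0.21 and 1.08.

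Other scalings gave either sign. After subtraction of each sample's mean over the 237 assays read throughout (the global mean), mmu-miR-451 stood at -1.26, -1.47 and -2.38 cycles in the BTBR mice, against -1.52, -1.05 and -0.47 cycles in the C57BL/6J mice. The groups overlapped through C57BL/6J replicate 1, and BTBR replicate 3 was again earliest. The log2 difference was 0.69 (standard error 0.47, limma adjusted p = 0.357; exact two-sided permutation p = 0.3), and it was 0.35 without BTBR replicate 3 and 0.42 without C57BL/6J replicate 3. Of 9 scales, 6 gave a higher and 3 a lower level of mmu-miR-451 in BTBR, and BTBR replicate 3 had the earliest value on 6 of them. The difference passed on 1 scale, with raw thresholds set against the medians of the 4 controls other than U6 rRNA, where it was -1.27 (standard error 0.46, limma adjusted p = 0.0476). On that scale 63.7% of the 270 assays were called lower in BTBR.

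**Figure D3:**
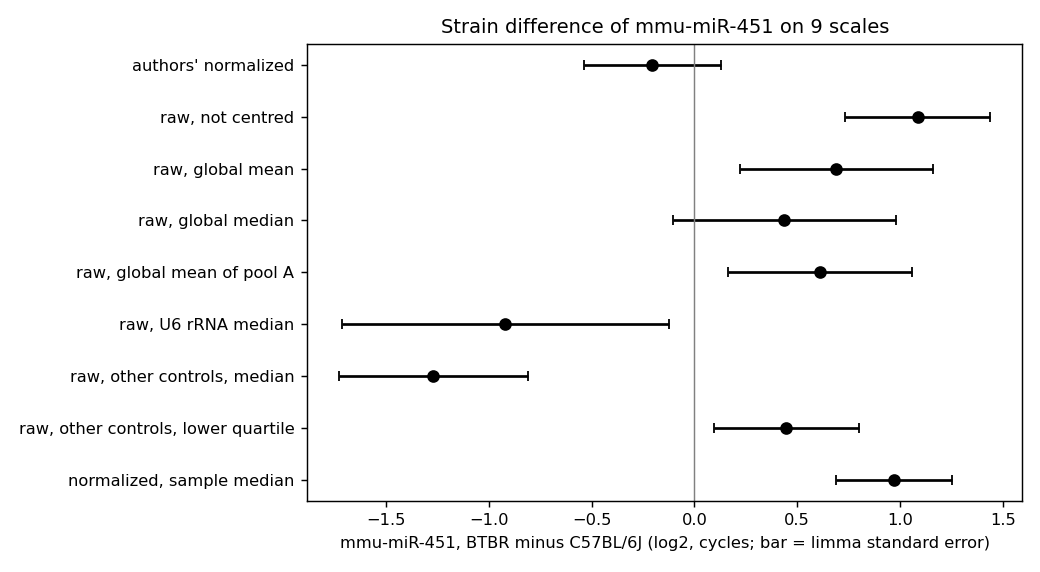
Difference of mmu-miR-451 between BTBR and C57BL/6J (x axis, log2, cycles, with the limma standard error as a bar) on 9 scales (y axis), from 3 mice per strain. The value is -0.21 on the authors' normalized thresholds, 1.08 on raw thresholds and 0.69 on the global mean scale, while the median of control spots gives negative values of -0.92 (U6 rRNA) and -1.27 (the other controls).

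The last scale rests on the control spots. Each sample carried 16 spots of each of 5 endogenous small RNA controls, all in pool B, so the spread of a control between spots of 1 sample could be read directly. In BTBR 3 of 240 control spots were undetermined (1.25%), against 57 of 240 in C57BL/6J (23.75%). The 3 BTBR mice had 2, 0 and 1 such spots of 80, against 17, 19 and 21 in the C57BL/6J mice, so the groups did not overlap. Among read spots of 1 control in 1 sample, the SD ran from 1.56 to 5.97 cycles in BTBR and from 3.33 to 8.33 cycles in C57BL/6J. These are spreads of the control RNAs, and each miRNA assay had 1 spot per sample, so its own spread between spots was not measured. At the lower quartile of the 16 spots, with undetermined spots kept at 40 so that they still move the quartile, the controls were 0.309 (U87) to 0.977 cycles (Y1) later in C57BL/6J, and at the median the difference BTBR minus C57BL/6J ran from -3.88 (Y1) to -1.09 cycles (snoRNA135). Set against the lower quartiles of the 4 controls other than U6 rRNA, an alternative chosen after seeing the data, mmu-miR-451 differed by 0.45 (standard error 0.35, limma adjusted p = 0.427). There it was earlier in every BTBR mouse (exact two-sided permutation p = 0.1).

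**Figure D4:**
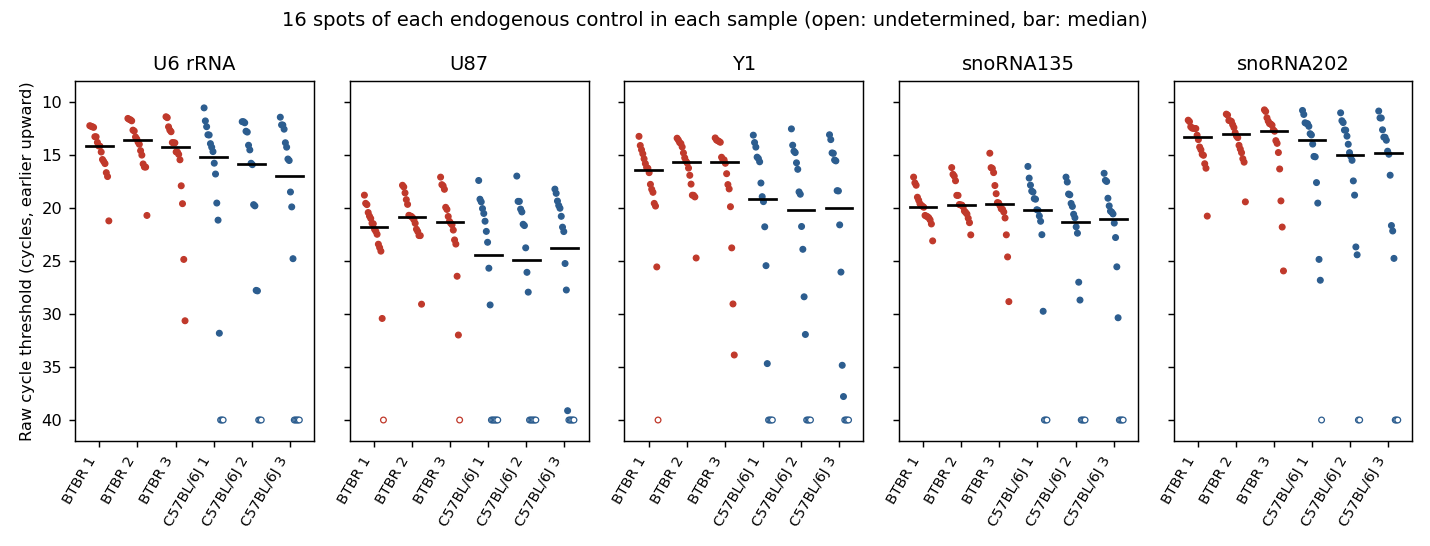
Raw cycle threshold (y axis, cycles, earlier upward) of the 16 spots of each endogenous control in each of the 3 BTBR and 3 C57BL/6J mice (x axis), with undetermined spots open at 40 and the median as a bar. Undetermined spots make up 1.25% in BTBR and 23.75% in C57BL/6J, and the medians lie later in C57BL/6J for all 5 controls.

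The raw threshold of hsa-miR-486 was 16.664 cycles in BTBR replicate 1, 16.619 in replicate 2 and 15.198 in replicate 3, while the assay stood at 40 in all 3 C57BL/6J mice. Normalized values were 16.79, 17.17 and 15.16 cycles in BTBR, and again 40 in every C57BL/6J mouse. BTBR replicate 3 was the earliest on both scales, as it was for mmu-miR-451. No fold change is given, since 40 is not a measured level. In the authors' deposited table, where 40 counts as a level, the assay has a difference of mean thresholds of -23.63 cycles and an adjusted p of 0.0104. Of the 306 assays there, 48 have an adjusted p under 0.05, and for 26 the C57BL/6J mean is exactly 40. With 40 kept as a value, 8.5% of the 306 assays were called higher in BTBR by limma, hsa-miR-486 among them. For hsa-miR-486 that call only restates the on-off pattern, since 40 in every C57BL/6J mouse enters as a level without spread. It is no further support.

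The on-off pattern of hsa-miR-486 was shared by 28 of the 750 assays, 3.73%, and the opposite pattern by 3 assays, 0.4%. All 28 stood at exactly 40 in every C57BL/6J mouse. Pool A, to which hsa-miR-486 belongs, held 26 of them among its 377 assays, and pool B held 2 among its 373. By mean BTBR threshold hsa-miR-486 was the 5th earliest of the 28, at 16.16 ± 0.834 cycles (SD, n = 3). Of the 27 assays read in all BTBR mice at a mean no later than that, 20 were read in all C57BL/6J mice and 5 in none. When each mouse was left out in turn the pattern was shared by 29 to 62 assays, with 62 without BTBR replicate 3 and 47 without BTBR replicate 1, and hsa-miR-486 had it each time. The opposite pattern was then shared by 3 to 7 assays, with 7 without C57BL/6J replicate 1 and 6 without either BTBR replicate 3 or C57BL/6J replicate 3. Assays read in only some of the mice also differed between the strains. The BTBR mice had readings for 358, 404 and 347 assays, against 305, 301 and 289 in the C57BL/6J mice. The share of undetermined control spots moved the same way, and its part in the hsa-miR-486 result was not tested.

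Within BTBR, both erythroid assays placed replicate 3 first, but by unequal steps. On the global mean scale hsa-miR-486 stood at -5.31, -4.84 and -6.92 cycles in BTBR replicates 1, 2 and 3, and mmu-miR-451 at -1.26, -1.47 and -2.38 cycles. The raw gap between the assays was therefore 4.06, 3.37 and 4.54 cycles. Among all 28 assays with the on-off pattern, replicate 3 was the earliest of the BTBR mice in 15 on the global mean scale and in 11 on raw thresholds.

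The assay HSA-MIR-144, for the partner of miR-451 on the same transcript, was undetermined at 40 in all 3 BTBR and all 3 C57BL/6J mice and is not in the authors' normalized table. In pool B, 47.7% of the 373 assays stood at 40 in all 6 samples. The name gives no arm, and miR-144 was not measurable with this assay, so its level in either strain is unknown. In the same samples miR-451 was read at 19.742 to 21.426 cycles.

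A ratio in common use for red cell content of plasma sets miR-451 against miR-23a, a miRNA that red cells hold little of. Whether this ratio reads red cell content in cortex was not tested. It could be formed in C57BL/6J only, since hsa-miR-23a stood at 40 in all 3 BTBR mice, as only 0.4% of assays did while read in all C57BL/6J mice. The hsa-miR-23a threshold minus that of mmu-miR-451 was 1.06, -0.08 and -1.19 cycles in C57BL/6J replicates 1, 2 and 3 on raw values, a mean of -0.07 ± 1.13 (SD, n = 3). On normalized values the same mice gave 0.79, -0.12 and -1.03 cycles. The order of the 3 mice was the same in both tables, with replicate 1 highest in miR-451 relative to miR-23a. The spread came mainly from hsa-miR-23a, whose raw thresholds were 22.163, 21.092 and 20.236 cycles, with an SD of 0.965 cycles, beside 0.171 cycles for mmu-miR-451.

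Other miRNAs that are abundant in red cells were read unevenly and had median changes near those of all assays. Of 21 such assays, 6 were read in all samples, 8 in none, 2 in every BTBR and no C57BL/6J mouse, 0 the other way round, and 5 in some other set of mice. Over all 750 assays, 3.73% were read in every BTBR and no C57BL/6J mouse. The BTBR mice had readings for 9, 12 and 11 of the 21, against 7, 7 and 7 in the C57BL/6J mice, the same direction as the whole panel. All 6 that could be tested on the authors' scale had a median log2 change of -1.28, beside -1.13 over the 231 assays. There 3 fell, 0 rose and 3 did not pass, beside 35.5% of all tested assays lower. With the global mean, 0 of the 6 passed and their median was -0.36, beside -0.40 over all 270 assays. These counts changed when single mice were left out, though the 3 assays that fell on the authors' scale stayed negative there. Their log2 changes ran from -1.91 to -1.52 (hsa-miR-15b), -2.09 to -1.34 (hsa-miR-20b) and -2.11 to -1.82 (hsa-miR-93#). On the authors' scale 3 of the 6 fell without BTBR replicate 3 and 2 without C57BL/6J replicate 1, but 0 did without any one of the other 4 mice, with 0% to 3.76% of all assays passing. With the global mean and without BTBR replicate 3, 1 rose and 2 fell, beside 8.91% higher and 13.2% lower over all 258 assays.

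**Figure D5:**
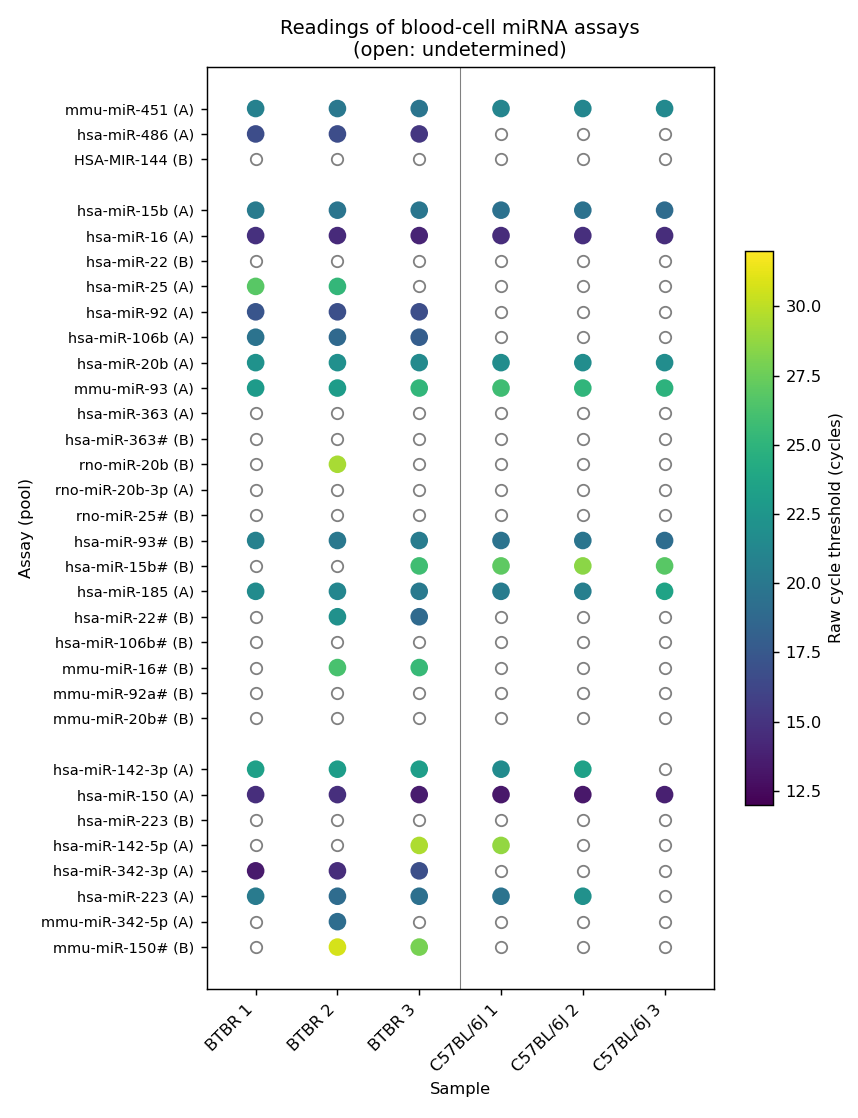
Readings of the erythroid, other red-cell-abundant and white blood cell and platelet assays (y axis, top to bottom, pool in brackets) in the 3 BTBR and 3 C57BL/6J mice (x axis), coloured by raw cycle threshold, with undetermined cells as open circles. The BTBR mice had readings for 9, 12 and 11 of the 21 red-cell-abundant assays, against 7 in each C57BL/6J mouse, and hsa-miR-486 is one of several assays read in BTBR only.

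Sequences of this group are shown to mark which of these assays share a seed, again in capitals and from RefSeq, build GRCm38.p6.
mmu-miR-16-5p: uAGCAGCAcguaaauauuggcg
mmu-miR-15b-5p: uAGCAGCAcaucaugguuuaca
mmu-miR-20b-5p: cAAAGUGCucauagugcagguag
mmu-miR-93-5p: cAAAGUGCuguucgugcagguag
mmu-miR-106b-5p: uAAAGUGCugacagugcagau
mmu-miR-92a-3p: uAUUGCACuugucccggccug
mmu-miR-25-3p: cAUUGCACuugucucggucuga
The first pair belong to the miR-15/16 family, which restrains cell cycle genes such as cyclin D1, the next 3 to the miR-17 family of growth-promoting clusters, and the last pair to the miR-92 family, in which the assay name hsa-miR-92 is the older name of miR-92a. None shares the seed of miR-451a or miR-144.

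In the miR-15/16 family, hsa-miR-15b fell on the authors' scale (log2 change -1.73, standard error 0.33, limma adjusted p = 0.0298). Its raw thresholds were 20.23, 19.812 and 19.823 cycles in BTBR, against 19.425, 19.517 and 18.99 cycles in C57BL/6J, so it was later in every BTBR mouse, the opposite of mmu-miR-451. With the global mean it was at -1.04 and did not pass (limma adjusted p = 0.148), but at -1.24 it passed without BTBR replicate 3 (limma adjusted p = 0.0491). The assay hsa-miR-16, named after its values were seen, had raw thresholds of 14.754, 14.404 and 13.993 cycles in BTBR, against 14.502, 14.681 and 14.577 cycles in C57BL/6J. Those groups overlapped, and its change of 0.21 on the authors' scale became -0.19 with the global mean.

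In the miR-17 family, hsa-miR-20b (log2 change -1.70, limma adjusted p = 0.0336) and hsa-miR-93#, by name the lesser strand (-1.99, limma adjusted p = 0.0265), fell on the authors' scale. With the global mean they were at -0.54 and -1.26, with limma adjusted p of 0.415 and 0.135. Without BTBR replicate 3 hsa-miR-93# passed with the global mean too, at -1.40 (limma adjusted p = 0.0399). The assay mmu-miR-93, by name the main strand, was read later than hsa-miR-93# in every mouse. It was at -0.17 on the authors' scale, and at 1.20 with the global mean, and passed on neither. Without BTBR replicate 3 it passed with the global mean, at 1.81 (limma adjusted p = 0.0346). Its raw thresholds were 22.869, 22.952 and 25.138 cycles in BTBR, against 25.819, 25.102 and 24.827 cycles in C57BL/6J, so BTBR replicates 1 and 2 were early while BTBR replicate 3 was at the C57BL/6J level. That order differs from mmu-miR-451, for which BTBR replicate 3 was first.

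Of the 21 assays, hsa-miR-92 and hsa-miR-106b had the on-off pattern of hsa-miR-486. Raw thresholds of hsa-miR-92 were 17.297, 16.786 and 16.755 cycles in BTBR and 40 in each C57BL/6J mouse. Those of hsa-miR-106b were 19.592, 18.768 and 17.889 cycles in BTBR and 40 in each C57BL/6J mouse.

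The gap between mmu-miR-451 and a single other assay does not depend on how a sample is centred. The raw threshold of hsa-miR-16 minus that of mmu-miR-451, a comparison added after seeing the data, was -5.97, -5.58 and -5.75 cycles in BTBR, against -6.60, -6.50 and -6.85 cycles in C57BL/6J. The groups did not overlap, and mmu-miR-451 was higher relative to hsa-miR-16 by 0.88 in BTBR (exact two-sided permutation p = 0.1, the smallest possible). On normalized thresholds the same difference was -0.42 and the groups overlapped (exact two-sided permutation p = 0.2). Over all 236 other assays read in every sample, mmu-miR-451 was higher in every BTBR mouse than in every C57BL/6J mouse relative to 118 of them, and lower relative to 5. That is 52.1% of the 236, beside 31% of all pairs among the 237 assays whose raw gap did not overlap between the strains. These gaps share mmu-miR-451, so they are not independent of each other. The raw thresholds of mmu-miR-451 alone already did not overlap, so the gaps in part restate that difference and are no further support.

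White blood cells and platelets carry miR-142, miR-223, miR-150 and miR-342. In brain these do not mark blood alone, since resident microglia also make miR-142 and miR-342, and neural cells make miR-342. Of 8 such assays, 1 was read in all samples, 1 in every BTBR and no C57BL/6J mouse, 1 in none and 5 in some other set of mice. Over the whole panel, 3.73% of the 750 assays were read in every BTBR and no C57BL/6J mouse. The BTBR mice had readings for 4, 6 and 6 of the 8, against 4, 3 and 1 in the C57BL/6J mice, the same direction as the whole panel. On the authors' scale 0 of 3 tested assays passed, beside 36.8% of all assays, and with the global mean 0 of 3, beside 0%. Without BTBR replicate 3, 0 of 3 passed in either case, beside 47.6% and 22.1% of all assays.

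The myeloid assay hsa-miR-223 of pool A had raw thresholds of 20.21, 18.99 and 19.298 cycles in BTBR, against 19.629, 22.012 and 40 in C57BL/6J. It was early in C57BL/6J replicate 1 and undetermined in C57BL/6J replicate 3, so the groups overlapped. The log2 change on normalized thresholds, which leaves out C57BL/6J replicate 3, was 0.22 (standard error 0.65, limma adjusted p = 0.788). With 40 as a value it was 6.81 (standard error 5.97). A second hsa-miR-223 assay, in pool B, stood at 40 in all 6 samples. The assay hsa-miR-142-3p, from blood-derived cells of most kinds, was read at 23.285, 23.018 and 23.158 cycles in BTBR, against 21.6, 23.338 and 40 in C57BL/6J. Its log2 change, again without C57BL/6J replicate 3, was -2.14 on normalized thresholds (standard error 0.62, limma adjusted p = 0.051) and -1.26 with the global mean (limma adjusted p = 0.305). The assay hsa-miR-150 is best known from lymphocytes. It was read about as early as the neuronal hsa-miR-128a, but a likeness of thresholds between assays does not show a shared cell source. Its cell source in this tissue was not tested. Its raw thresholds were 14.652, 14.715 and 13.516 cycles in BTBR, against 13.286, 13.29 and 13.779 cycles in C57BL/6J. The groups overlapped through BTBR replicate 3, with changes of -0.72 on normalized thresholds and -1.24 with the global mean, neither of which passed. The assay hsa-miR-342-3p, at 13.355, 14.515 and 16.813 cycles in BTBR and 40 in each C57BL/6J mouse, had the on-off pattern, but with BTBR replicate 3 latest, not earliest.

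Judged by sample, the raw table placed BTBR replicate 3 highest in mmu-miR-451, followed by BTBR replicates 2 and 1 and then by C57BL/6J replicates 1, 2 and 3. On the global mean scale the order was BTBR replicate 3, C57BL/6J replicate 1, BTBR replicates 2 and 1, and C57BL/6J replicates 2 and 3. In the normalized table it was BTBR replicate 3, C57BL/6J replicates 2, 3 and 1, and BTBR replicates 1 and 2.

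The assays whose raw thresholds on the global mean scale were most like mmu-miR-451 over the 6 samples, by Pearson r among 236 assays, were mmu-miR-24-2# (r = 0.968), hsa-miR-744 (0.909), hsa-miR-146b (0.865), mmu-miR-134 (0.839) and rno-miR-339-3p (0.831). The least like it were hsa-miR-143 (r = -0.856), mmu-miR-7b (-0.774) and RNO-MIR-409-3P (-0.746). These are descriptions over 6 points that share the same global means, and 2 of the 236 assays had an r over 0.9. From the blood lists, hsa-miR-185 stood at r = 0.717, hsa-miR-16 at 0.597, hsa-miR-20b at 0.269, hsa-miR-150 at 0.118, mmu-miR-93 at -0.06, hsa-miR-15b at -0.274 and hsa-miR-93# at -0.407.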

How the data were processed

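Raw values are cycle thresholds (a score, in PCR cycles) of 750 assays and 96 control lines, deposited by the authors as read by the instrument. RNA with an integrity number of 9 was column-purified and 100 ng was reverse-transcribed and pre-amplified, per the labels' protocols, and columns of the standard kind recover short RNA less fully. The authors' deposited normalized scores, 306 assays, are quantile-normalized per the file headers. Their deposited fold table holds a ratio, a p-value and an adjusted p-value, with the kind of test not given in the sources used here. Instrument software, thresholds and the sharing of arrays are not given either. A threshold has no counting depth, and with 1 PCR per assay the spread between 3 mice is the error measured here. The labels call the samples replicates of each strain without saying more of their origin.

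Normalized thresholds times -1, with 40 as missing, were tested with limma 3.58.1 in R 4.3.3 (strain as the single term, at least 2 values per strain, Benjamini-Hochberg over all assays tested, threshold 0.05). Raw readings under 10 cycles were left out. Single values were compared by exact two-sided permutation. The fit was also run on simulated complete data with independent assays, without undetermined cells or a mouse set apart from its group. That run does not show how the fit behaves with either. Alternatives were other scalings, filters, 40 as a value, the replicate number as a block and leaving out each mouse. Named assays are the members, list assays that passed or had up to 4 of the largest global-mean changes, and the 5 most and 3 least like mmu-miR-451. The members and lists were chosen with earlier results of these data known. The replicate numbers are not said to pair mice, and deviations of same-numbered mice correlated at 0.083, 0.421 and -0.001.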

Additional observations from a re-analysis of the deposited data

How the results depend on the processing

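For mmu-miR-451 the sign depended on the scaling. The limma difference of -0.21 on the authors' values became 0.69 with the global mean, 1.08 on raw thresholds, 0.61 with the global mean within pool A, 0.97 with normalized values centred on sample medians and 0.45 with the lower quartile of the non-U6 controls, and it passed at -1.27 with the median of those controls, a scale in which undetermined control spots enter the median. Leaving out each mouse gave -0.45 to -0.03, and the replicate block left it at -0.21 (limma adjusted p = 0.683). The difference against the global mean, 0.69, was -0.21 on normalized thresholds, -0.92 against U6 rRNA and -1.27 against the other controls, and 0.35 to 0.94 when each mouse was left out. The gap to hsa-miR-16, 0.88, became -0.42 on normalized thresholds and ranged from 0.78 to 0.98 without each mouse. The gap to hsa-miR-23a in C57BL/6J ranged from -0.64 to 0.49 without each mouse.

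The count of passing assays, 85, was 0 with the global mean, raw thresholds, the global mean within pools, U6 rRNA and the lower quartile of the non-U6 controls (71, 52, 78, 131 and 65 at an unadjusted p under 0.05 in limma). It was 173 with the median of the non-U6 controls (1 higher, 172 lower), 2 with sample medians (1 higher, 1 lower) and 49 with the replicate block, and 0 to 101 when each mouse was left out: 0 without BTBR replicate 1 or C57BL/6J replicate 3, 8 without BTBR replicate 2 and 3 without C57BL/6J replicate 2. With the replicate block hsa-miR-20b did not pass (limma adjusted p = 0.0503).

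Among the other named assays, mmu-miR-93 turned from -0.17 to 1.20 (global mean), 1.60 (raw), 1.12 (within pools), 1.00 (sample medians), 0.96 (lower quartile of controls) and 0.50 (without BTBR replicate 3, range -0.77 to 0.50). hsa-miR-16 turned from 0.21 to -0.19 (global mean), -0.27 (within pools), -1.80 (U6 rRNA), -2.15 (median of controls) and -0.44 (lower quartile). hsa-miR-223 turned from 0.22 to -0.19 (U6 rRNA) and -1.02 (median of controls), hsa-miR-142-3p from -2.14 to 3.91 with 40 as a value, and hsa-miR-150 from -0.72 to 0.45 with sample medians. The cause of these turns was not tested. Each assay had 1 PCR per mouse, so its spread between spots was not measured.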
